A study of Mus musculus with 6 samples.

Results

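The osteoblast transcription factors and mineralization genes examined here are 10 named genes, of 21686 in the gene table, that were followed across 6 RNA-seq libraries. They were chosen by symbol as *Runx2*, *Sp7*, *Dlx5*, *Alpl*, *Phex*, *Sparc*, *Spp1*, *Ibsp*, *Dmp1* and *Bglap*, and each matched 1 gene of the table. The cells were MC3T3-E1 Subclone 14, a single clone of a mouse calvarial osteoblast precursor line, and the labels name no mineralizing supplement. The control group received PBS, the dexamethasone group received 10 µM dexamethasone, a synthetic glucocorticoid, and the dexamethasone + EPC-EVs group received 10 µM dexamethasone together with 100 µg of EPC-EVs, all for 72 hours. The design text of the series names fibroblasts and a shorter exposure, and the sample labels and the study's methods, which name osteoblasts, were followed. EPC-EVs are extracellular vesicles released by endothelial progenitor cells of mouse bone marrow. Each group had 2 libraries, no group received EPC-EVs without dexamethasone, and the study addressed whether EPC-EVs alter the response of osteoblasts to a high dose of steroid.

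Osteoblasts are the cells that form bone. RUNX2 is the transcription factor that commits precursor cells to the osteoblast lineage, SP7 (osterix) acts downstream of it, and DLX5 is a homeodomain factor of the same programme. Osteoblasts then secrete collagen and matrix proteins, and late in the programme they mineralize that matrix with the help of alkaline phosphatase, acidic matrix phosphoproteins and enzymes that control phosphate, while cells enclosed in the matrix become osteocytes.

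Counts are reads assigned to a gene, CPM are counts scaled to the library total after TMM normalization, and FPKM are the deposited values per length of gene and size of library, the scale on which the levels of the 10 genes are compared with each other, whereas sums over marker lists are in CPM. The control and dexamethasone libraries held 5146760 to 6583735 counts each, and those with EPC-EVs held 12864009 and 13182014. A count of 0 allows up to 3 counts, or 0.235 to 0.597 CPM, for counting error only. Mitochondrially encoded genes took 5.55% to 8.62% of the counts of the control and dexamethasone libraries, but 0.465% and 0.727% where EPC-EVs were added. Depth, this share and the EPC-EV treatment therefore cannot be told apart by group. The 2 libraries of each group were further apart than sampling noise allows (chi-square over its degrees of freedom 7.17 to 20.1). In bulk RNA, fewer cells of a type and less RNA per cell cannot be told apart.

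The osteoblast label was checked against 8 markers. *Col1a1* and *Col1a2*, the chains of type I collagen, were abundant in every library, at 2205 to 8770 CPM and 2302 to 11662 CPM, and *Runx2* was present throughout, but the receptor gene *Pth1r* and the later markers *Alpl*, *Ibsp* and *Bglap* were low, at most 3.18 CPM apart from 6.57 CPM of *Bglap* in EPC-EV replicate 1. The summed CPM of the 8 markers was 4719 to 5826 in the control and dexamethasone libraries, and 20653 and 16453 with EPC-EVs. Nearly all of it was *Col1a1* and *Col1a2* in every library, so the sum does not describe the other markers. Of other cell types, adipocyte markers (5 of 5 in the table) summed to 2.79 to 10.6 CPM, with *Pparg* at 0 in the control and EPC-EV libraries. Endothelial markers (6 of 7) summed to 243 to 416 CPM, nearly all of it *Cd34*, while *Cdh5* had at most 1 count, and chondrocyte markers (4 of 6) summed to 211 to 330 CPM, most of it *Sox9*, with *Col2a1* at 4.79 to 24.02 CPM and *Acan* at most 1 count. Blood cell markers (4 of 6) summed to 3.98 to 7.72 CPM in 5 libraries and to 38.6 CPM in replicate 2 of dexamethasone + EPC-EVs, where *Csf1r* reached 37.0 CPM. Of the 4 myoblast markers only *Des* is analysed here, at 1.26 to 8.73 CPM. Of the markers of other cell types, EPC-EVs against dexamethasone called *Cebpa* higher (log2 fold change 3.37) and *Fabp4* (-3.76), *Des* (-1.97), *Cd34* (-0.51) and *Sox9* (-0.47) lower by edgeR's quasi-likelihood test. Tested there were 2 adipocyte, 3 endothelial, 2 chondrocyte, 2 blood cell and 1 myoblast markers, and 39.8% of all genes were called. EPC-EVs against control called *Csf1r* higher (4.25) and *Fabp4* (-3.53) and *Cd34* (-0.62) lower. Tested there were 2, 2, 2, 2 and 1 in the same order, and 36.4% of all genes were called. The part of these markers in the results was not tested.

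Sequence upstream of 4 genes is shown first, because *Spp1* and *Phex* fell with EPC-EVs and because *Dmp1* and *Bglap* were among the genes that varied most between the EPC-EV libraries. RUNX factors bind a short motif, searched here as ACCACA on either strand (TGTGGT on the other), and 5506 of 32851 promoter windows of 300 bases (16.8%), from 250 before the start to 50 after it, held it. RefSeq windows on GRCm38.p6 matched 8 of the 10 genes and gave 11 windows, since some genes have more than 1 start. The motif was in 5 of these 11 windows, of 5 genes: 3 matches in a window of *Runx2* itself and 1 each for *Bglap*, *Spp1*, *Sparc* and *Dmp1*. None was in the windows of *Alpl*, *Ibsp* or *Phex*. Each sequence is the DNA before the start site, 5′ to 3′ on the strand of the gene, at chr5:104434861-104435110 (+ strand) for *Spp1*, chrX:157415313-157415536 (- strand) for *Phex*, chr5:104202367-104202612 (+ strand) for *Dmp1* and chr3:88384467-88384716 (- strand) for *Bglap*, and capitals mark the motif.
Spp1: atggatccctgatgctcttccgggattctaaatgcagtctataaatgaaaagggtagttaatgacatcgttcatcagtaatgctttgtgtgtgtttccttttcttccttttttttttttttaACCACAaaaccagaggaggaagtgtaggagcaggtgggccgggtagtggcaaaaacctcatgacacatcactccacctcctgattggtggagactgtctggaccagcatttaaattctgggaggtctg
Phex: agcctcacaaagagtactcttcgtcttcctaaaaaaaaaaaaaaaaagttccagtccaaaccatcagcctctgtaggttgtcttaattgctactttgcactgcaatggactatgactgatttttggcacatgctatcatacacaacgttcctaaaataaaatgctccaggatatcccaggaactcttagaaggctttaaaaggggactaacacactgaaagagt
Dmp1: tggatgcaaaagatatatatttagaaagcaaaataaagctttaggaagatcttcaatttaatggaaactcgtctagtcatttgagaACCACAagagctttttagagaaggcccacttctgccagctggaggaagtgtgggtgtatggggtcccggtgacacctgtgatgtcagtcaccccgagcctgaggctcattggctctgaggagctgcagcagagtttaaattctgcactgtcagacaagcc
Bglap: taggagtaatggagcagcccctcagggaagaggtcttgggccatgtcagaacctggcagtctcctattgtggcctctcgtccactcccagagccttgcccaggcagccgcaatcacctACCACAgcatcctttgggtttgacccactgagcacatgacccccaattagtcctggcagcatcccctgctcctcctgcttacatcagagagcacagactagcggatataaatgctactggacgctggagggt
The capitals stand in the sequences of *Spp1*, *Dmp1* and *Bglap*, and the *Phex* sequence has none. A match is a description of the letters only, since binding was not measured.

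The 10 genes ranged from genes among the most abundant of the table to genes near the detection limit. By mean FPKM over the 6 libraries, *Spp1* was highest at 5424 ± 1833 (SD, n = 6), rank 4 of 21686, and *Sparc* followed at 378 ± 208, rank 47. *Dmp1* stood at 81.6 ± 46.3 FPKM, *Dlx5* at 24.6 ± 3.03 FPKM and *Runx2* at 20.2 ± 1.67 FPKM. *Bglap* stood at 3.48 ± 3.73, *Phex* at 2.91 ± 1.61 and *Sp7* at 2.26 ± 2.37 FPKM, and their order differed between libraries, since *Phex* was above *Sp7* in the 4 control and dexamethasone libraries and below it in both EPC-EV libraries. *Ibsp* at 0.524 ± 0.418 and *Alpl* at 0.307 ± 0.276 FPKM were the lowest and did not differ beyond their spread. *Dlx5* was above *Runx2* in 5 of the 6 libraries. The line therefore expressed the factors *Runx2* and *Dlx5* and the matrix genes *Spp1*, *Sparc* and *Dmp1* in every library, and gave few reads for *Alpl* and *Ibsp*. *Bglap* and *Sp7* also had few reads, apart from 83 and 260 counts in EPC-EV replicate 1.

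**Figure D1:**
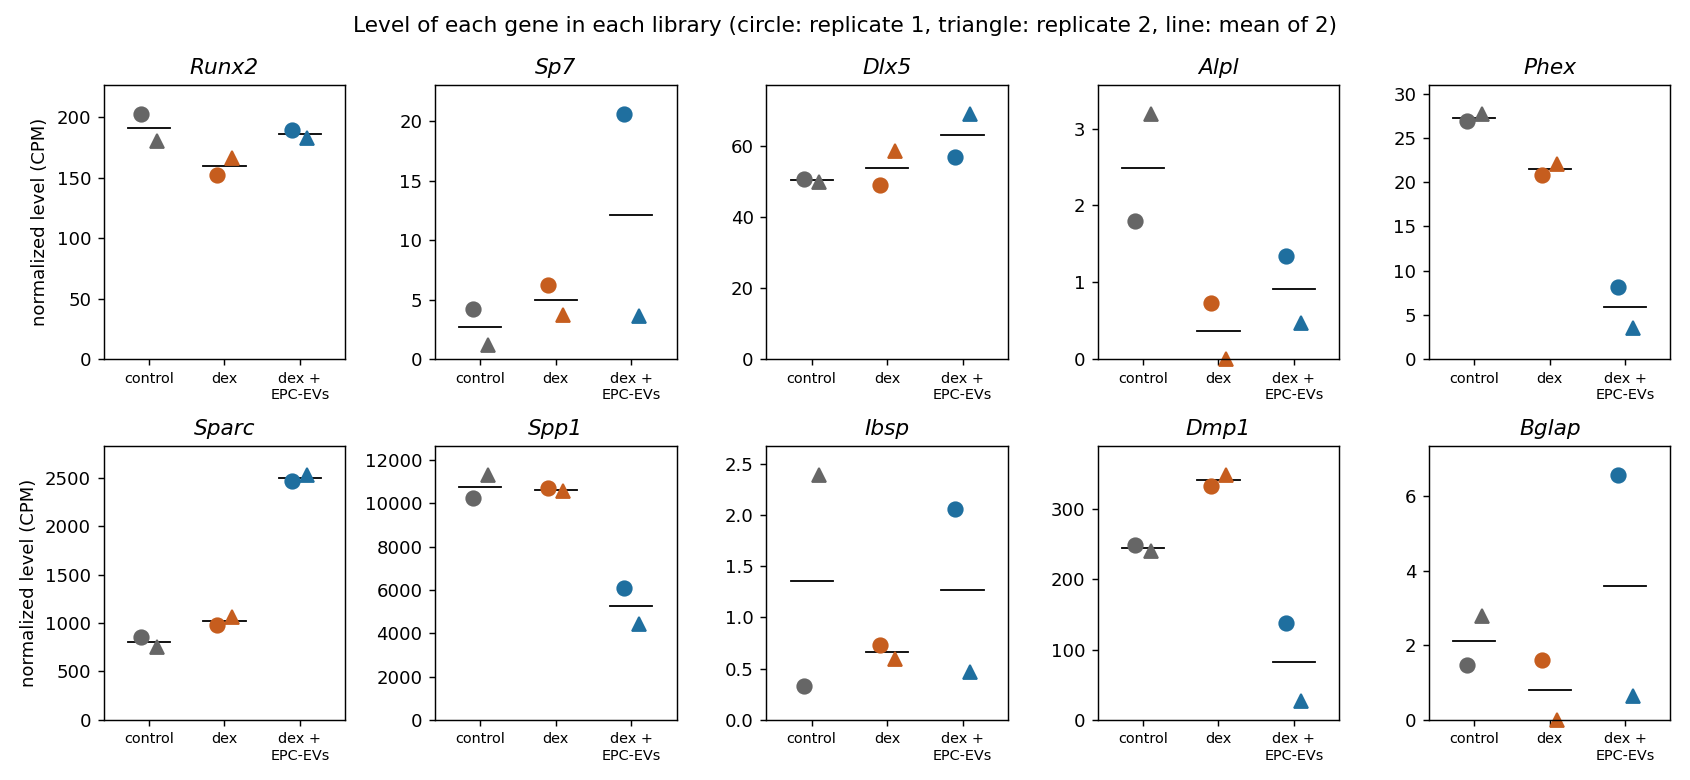
Level of each of the 10 genes in each library, in CPM on a linear axis that starts at 0, with circles for replicate 1, triangles for replicate 2 and a line at the mean of the 2. *Sparc* stood at 2472 and 2529 CPM in the dexamethasone + EPC-EVs libraries, above the other 4, whereas *Spp1* and *Phex* were lower there than in any other library.

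The first comparison, dexamethasone against control, asked what the steroid alone did to these genes. None of the 9 genes with enough counts was called by edgeR's quasi-likelihood test at an adjusted p under 0.05, where 0.0544% of all 12879 genes tested were called (0.0155% higher and 0.0388% lower). At an unadjusted p under 0.05, 2 of the 9 genes passed, *Dmp1* and *Sparc*, beside 10.9% of all genes. The median log2 fold change of the 9 was -0.03 beside 0.01 over all genes. DESeq2 called none of the 5 it gave an adjusted p, and 131 genes overall. *Ibsp* had too few counts for this test.

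With EPC-EVs added to dexamethasone, compared with dexamethasone alone, *Sparc* rose and *Spp1* and *Phex* fell, while *Runx2* and *Dlx5* did not pass the test. These were 3 calls among the 8 genes tested, beside 39.8% of all 13556 genes (20.9% higher and 18.9% lower), so the share called among the 8 was close to that of all genes tested. At an unadjusted p under 0.05 the same 3 passed, beside 48.4% of all genes. The median log2 fold change of the 8 was 0.18, and 0.01 over all genes. *Alpl* and *Ibsp* had too few counts to be tested. Compared with control, dexamethasone + EPC-EVs showed the same 3 genes called in the same directions, of 10 tested, beside 36.4% of all 13511 genes (19.1% higher and 17.2% lower) and with 5 beside 46.7% at an unadjusted p under 0.05, with a median of -0.11 and 0.02 over all genes. Both comparisons use the same EPC-EV libraries and are not independent of each other.

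**Figure D2:**
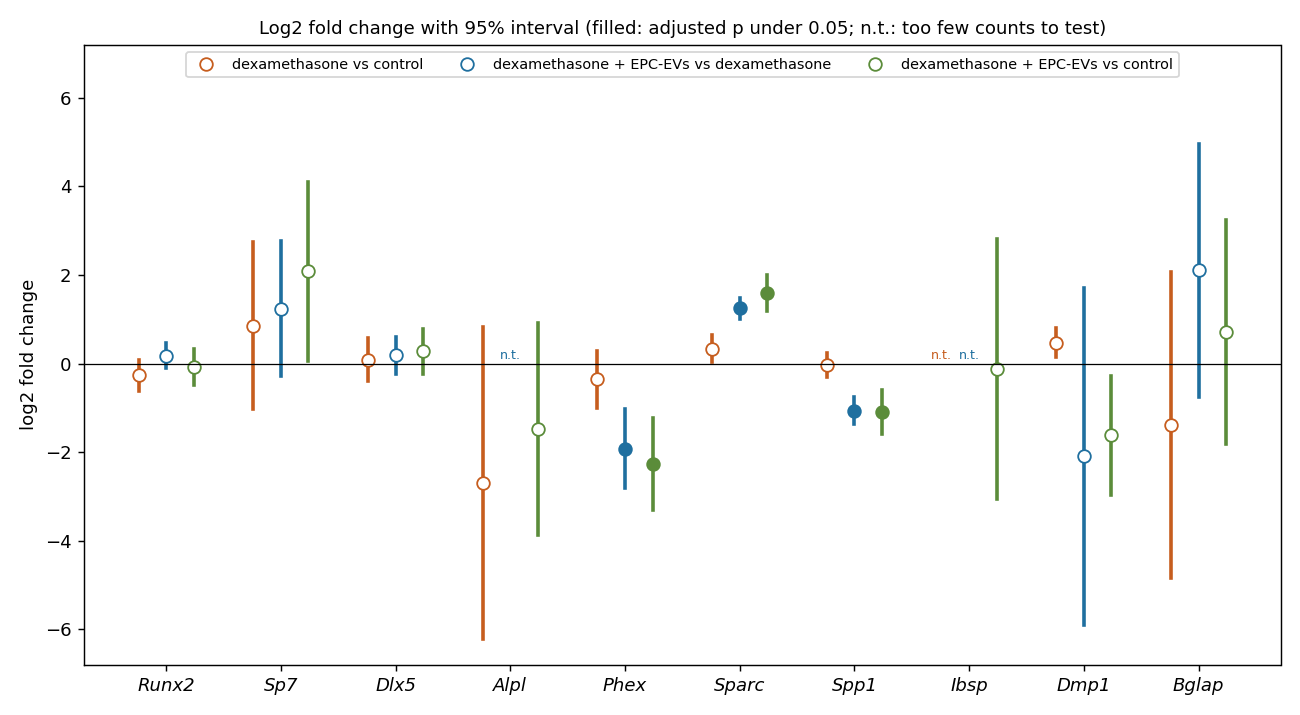
Log2 fold change of each gene with its 95% interval in the 3 comparisons (edgeR's quasi-likelihood test), with filled circles where the adjusted p was under 0.05 and n.t. where a gene had too few counts to be tested. *Sparc* lay above 0 and *Spp1* and *Phex* below 0 in both comparisons with EPC-EVs, and there the intervals of *Sp7*, *Bglap* and *Dmp1* were wider than those of *Runx2* and *Dlx5*.

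Among the transcription factors, *Runx2* (chr17:44495987-44814797, - strand, GRCm38) held nearly the same level throughout. Its CPM were 202 and 179.9 in control, 152 and 166 with dexamethasone, and 189 and 183 with EPC-EVs added. The dexamethasone libraries were the lowest, and both EPC-EV libraries lay within the range of the control libraries. The log2 fold change was -0.27 ± 0.16 (SE; adjusted p = 0.553, edgeR) for dexamethasone against control, with a 95% interval of -0.62 to 0.08, and 0.18 ± 0.13 (adjusted p = 0.311), with an interval of -0.11 to 0.47, for EPC-EVs against dexamethasone. Against control it was -0.09, with an interval of -0.49 to 0.32. The locus overlaps *Supt3* and 3 antisense transcripts on the other strand. The alignment was run with a strand setting, but whether the counting used strand is not given in the sources used here, so reads of the partners may be included.

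*Dlx5* (chr6:6877805-6882085, - strand), which encodes a homeodomain factor, also varied little. Its highest CPM was 1.40-fold its lowest, beside 1.33-fold for *Runx2*. It measured 50.8 and 49.8 CPM in control, 49.1 and 58.4 CPM with dexamethasone, and 57.0 and 68.9 CPM with EPC-EVs. The EPC-EV and dexamethasone groups overlapped, and the control libraries lay below both EPC-EV libraries. No comparison passed, with log2 fold changes of 0.09 (interval -0.40 to 0.58), 0.18 (-0.23 to 0.59) and 0.28 (-0.23 to 0.78) for dexamethasone against control, EPC-EVs against dexamethasone and EPC-EVs against control. The sign of all 3 turned when the dependence on GC content and transcript length was taken out, to -0.16, -0.31 and -0.49.

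*Sp7* (chr15:102356606-102367182, - strand), the gene of osterix, was low and uneven. It had 26 and 6 counts in control, 43 and 25 with dexamethasone, and 260 and 46 with EPC-EVs, or 4.23 and 1.19, 6.26 and 3.68, and 20.6 and 3.61 CPM. Replicate 1 with EPC-EVs was the highest of the 6, and replicate 2 lay just below the dexamethasone libraries. The log2 fold change was 1.23 ± 0.69 (SE; adjusted p = 0.180, edgeR) against dexamethasone and 2.08 ± 0.89 (adjusted p = 0.10) against control. Against dexamethasone it was -0.49 (adjusted p = 0.670) without EPC-EV replicate 1 and 2.02 (adjusted p = 0.00138) without EPC-EV replicate 2, so 1 library decided its direction. With no filter on low counts, *Sp7* was called, at 1.27 (adjusted p = 0.0202, edgeR) against dexamethasone and 2.13 (adjusted p = 0.00258) against control.

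The matrix genes followed. *Sparc* (chr11:55394500-55423183, - strand) encodes osteonectin, a secreted glycoprotein that binds collagen and calcium. It measured 857 and 751 CPM in control, 982 and 1061 CPM with dexamethasone, and 2472 and 2529 CPM with EPC-EVs. The 3 groups did not overlap, the EPC-EV libraries were the highest and lay close together, and the FPKM rank of the gene went from 106 and 115 in control to 22 in both EPC-EV libraries. *Sparc* rose by a log2 fold change of 1.25 ± 0.11 (SE; adjusted p = 8.98e-06, edgeR) against dexamethasone and of 1.59 ± 0.18 (adjusted p = 0.00056) against control. It remained called with each library left out in turn, at 1.21 to 1.304 against dexamethasone and 1.52 to 1.73 against control, where the spread came from the remaining pair alone. Dexamethasone against control gave 0.34 ± 0.14 (unadjusted p = 0.0339, adjusted p = 0.422, edgeR), which did not pass. Without control replicate 1 it gave 0.45 (adjusted p = 0.0041), where the spread came from the dexamethasone pair alone and 2200 genes of the table were called in place of 7.

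*Spp1* (chr5:104435118-104441050, + strand) encodes osteopontin, an acidic phosphoprotein that binds mineral and inhibits crystal growth. Its CPM were 10249 and 11314 in control, 10693 and 10568 with dexamethasone, and 6104 and 4405 with EPC-EVs. The control and dexamethasone libraries overlapped, and both EPC-EV libraries were lower than all 4 of them. Its FPKM rank was 5 in both control libraries, 3 in both dexamethasone libraries, and 2 and 3 with EPC-EVs. *Spp1* fell by a log2 fold change of -1.06 ± 0.14 (SE; adjusted p = 0.000155, edgeR) against dexamethasone and of -1.09 ± 0.22 (adjusted p = 0.00575) against control. With the trend on GC content and length removed, these were -0.54 (adjusted p = 0.0103) and -0.39 (adjusted p = 0.156), the latter no longer called. Dexamethasone against control gave -0.03, with an interval of -0.30 to 0.24. A predicted gene, *Gm42793*, overlaps *Spp1* on the same strand.

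*Ibsp* (chr5:104299171-104311469, + strand) encodes bone sialoprotein, a nucleator of mineral. It had 2 and 12 counts in control, 5 and 4 with dexamethasone, and 26 and 6 with EPC-EVs. These are at most 2.39 CPM, and the 3 groups overlapped. Only EPC-EVs against control could be tested, at a log2 fold change of -0.12 with an interval of -3.05 to 2.80 (adjusted p = 0.951, edgeR).

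The genes of phosphate handling and of the osteocyte came next. *Phex* (chrX:157162075-157415312, - strand) encodes a membrane endopeptidase of osteoblasts and osteocytes that restrains phosphate loss. It measured 26.9 and 27.7 CPM in control, 20.8 and 22.1 CPM with dexamethasone, and 8.16 and 3.53 CPM with EPC-EVs. The groups did not overlap, and the EPC-EV libraries were lowest but differed 2.31-fold between them. *Phex* fell by a log2 fold change of -1.92 ± 0.40 (SE; adjusted p = 0.00297, edgeR) against dexamethasone and of -2.27 ± 0.45 (adjusted p = 0.0057) against control. Without EPC-EV replicate 1 these were -2.63 and -2.98, and without EPC-EV replicate 2 they were -1.42 and -1.77. All were called, with the spread taken from the other group alone. Removing the trend on GC content and length gave -1.12 (adjusted p = 0.0549) and -1.24 (adjusted p = 0.0693), and neither was called. Dexamethasone against control gave -0.35 ± 0.29 (adjusted p = 0.695).

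*Dmp1* (chr5:104202613-104214102, + strand), which lies in the same cluster on chromosome 5 as *Ibsp* and *Spp1*, encodes dentin matrix protein 1, an acidic phosphoprotein of osteocytes. It measured 249 and 240.5 CPM in control, 333 and 348 CPM with dexamethasone, and 138 and 26.1 CPM with EPC-EVs. Both dexamethasone libraries were above both control libraries, and both EPC-EV libraries were below all 4, but the EPC-EV libraries differed from each other 5.31-fold. For dexamethasone against control the log2 fold change was 0.47 ± 0.14 (SE; unadjusted p = 0.00782, adjusted p = 0.330, edgeR), and 0.51 (adjusted p = 0.00546) without control replicate 1, under the same limit as for *Sparc*. For EPC-EVs it was -2.1 ± 1.05 against dexamethasone (adjusted p = 0.258), with a 95% interval of -5.90 to 1.71, and -1.62 ± 0.59 against control (adjusted p = 0.0614), so neither passed.

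Whether *Dmp1* was called differed between fits and with the libraries included. Against dexamethasone, leaving out replicate 1 gave -3.74 (adjusted p = 1.77e-14, edgeR) and leaving out replicate 2 gave -1.33 (adjusted p = 6.27e-11), both called, on the assumption that the lone EPC-EV library varies like the dexamethasone group. With both EPC-EV libraries kept, fitting all 6 libraries together gave -2.08 (adjusted p = 0.0273) and limma on log2(FPKM + 1) gave -2.52 (adjusted p = 0.0244), both called. *Dmp1* was not called against dexamethasone by DESeq2 or under the other normalizations. Nor was it called there without mitochondrially encoded genes or with the filter of a mean of at least 1 CPM. Against control the values without replicate 1 and replicate 2 were -3.27 (adjusted p = 2.62e-15) and -0.86 (adjusted p = 0.0386), and with the GC and length trend removed it was -1.91 (adjusted p = 0.0441), all called. Its level was thus lower in each EPC-EV library, by amounts that differed between them. Without control replicate 1, without control replicate 2 and by DESeq2, the comparison with control was not called (adjusted p = 0.440, 0.461 and 0.250).

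*Alpl* (chr4:137741733-137796384, - strand) encodes tissue-nonspecific alkaline phosphatase, which frees phosphate from pyrophosphate. It had 11 and 16 counts in control, 5 and 0 with dexamethasone, and 17 and 6 with EPC-EVs, at most 3.18 CPM. In CPM, both control libraries (1.79 and 3.18) were above all other libraries, of which EPC-EV replicate 1 was the highest at 1.35, at a level near the detection limit. Against control the log2 fold change was -2.71 ± 1.59 (SE; adjusted p = 0.551, edgeR) with dexamethasone and -1.48 ± 1.05 (adjusted p = 0.299) with EPC-EVs added, so no change of its RNA against control was detectable at this depth. EPC-EVs against dexamethasone was not tested for *Alpl*.

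*Bglap* (chr3:88383501-88384464, - strand) encodes osteocalcin, the late marker of mature osteoblasts. It had 9 and 14 counts in control, 11 and 0 with dexamethasone, and 83 and 8 with EPC-EVs. Replicate 1 with EPC-EVs stood alone at 6.57 CPM, and replicate 2, at 0.628 CPM, lay within the range of the dexamethasone libraries. The log2 fold change was 2.1 ± 1.3 (SE; adjusted p = 0.226, edgeR) against dexamethasone, -0.38 (adjusted p = 0.919) without EPC-EV replicate 1 and 2.98 (adjusted p = 0.0296) without EPC-EV replicate 2. Mouse has the near-identical neighbours *Bglap2* and *Bglap3*, between which reads can be split. The 3 genes summed had 35 and 44 counts in control, 30 and 15 with dexamethasone, and 276 and 41 with EPC-EVs. In CPM these were 5.70 and 8.76, 4.37 and 2.21, and 21.9 and 3.22. In CPM, EPC-EV replicate 2 was thus below both control libraries and within the range of the dexamethasone libraries. The sum of the 3 genes also did not pass against dexamethasone (log2 fold change 1.88 ± 0.79, adjusted p = 0.0866, edgeR), a value chosen after the counts were seen.

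For 6 of the 10 genes the EPC-EV libraries were uneven. In CPM, replicate 1 was higher than replicate 2 for *Bglap* (10.5-fold), *Sp7* (5.70-fold), *Dmp1* (5.31-fold), *Ibsp* (4.37-fold), *Alpl* (2.86-fold) and *Phex* (2.31-fold), of which *Ibsp* and *Alpl* had at most 26 counts. Among the 13465 genes that averaged 1 CPM or more, 99.8%, 99.5%, 99.4%, 97.6%, 93.5% and 93.5% had a smaller difference between these libraries in log2 CPM with a prior count of 2, which shrinks the differences of genes with few counts. *Spp1* differed 1.39-fold (72.2% of genes smaller), *Dlx5* 1.21-fold with replicate 2 higher (51.9%), *Runx2* 1.04-fold (12.3%) and *Sparc* 1.02-fold (8.08%). In control and dexamethasone, the well counted *Dmp1* differed 1.04-fold and 1.046-fold between replicates, and *Phex* 1.03-fold and 1.06-fold. Genes with few counts differed more there too, with *Ibsp* at 2 and 12 counts and *Sp7* 3.55-fold apart in CPM in control (94.5% and 90.3% of genes smaller), and *Bglap* at 11 and 0 counts and *Alpl* at 5 and 0 counts in dexamethasone (99.1% and 97.2% of genes smaller). The same EPC-EV libraries also differed in *Csf1r*, at 4.44 CPM in replicate 1 and 37.0 CPM in replicate 2, whose part in these results was not tested.

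**Figure D3:**
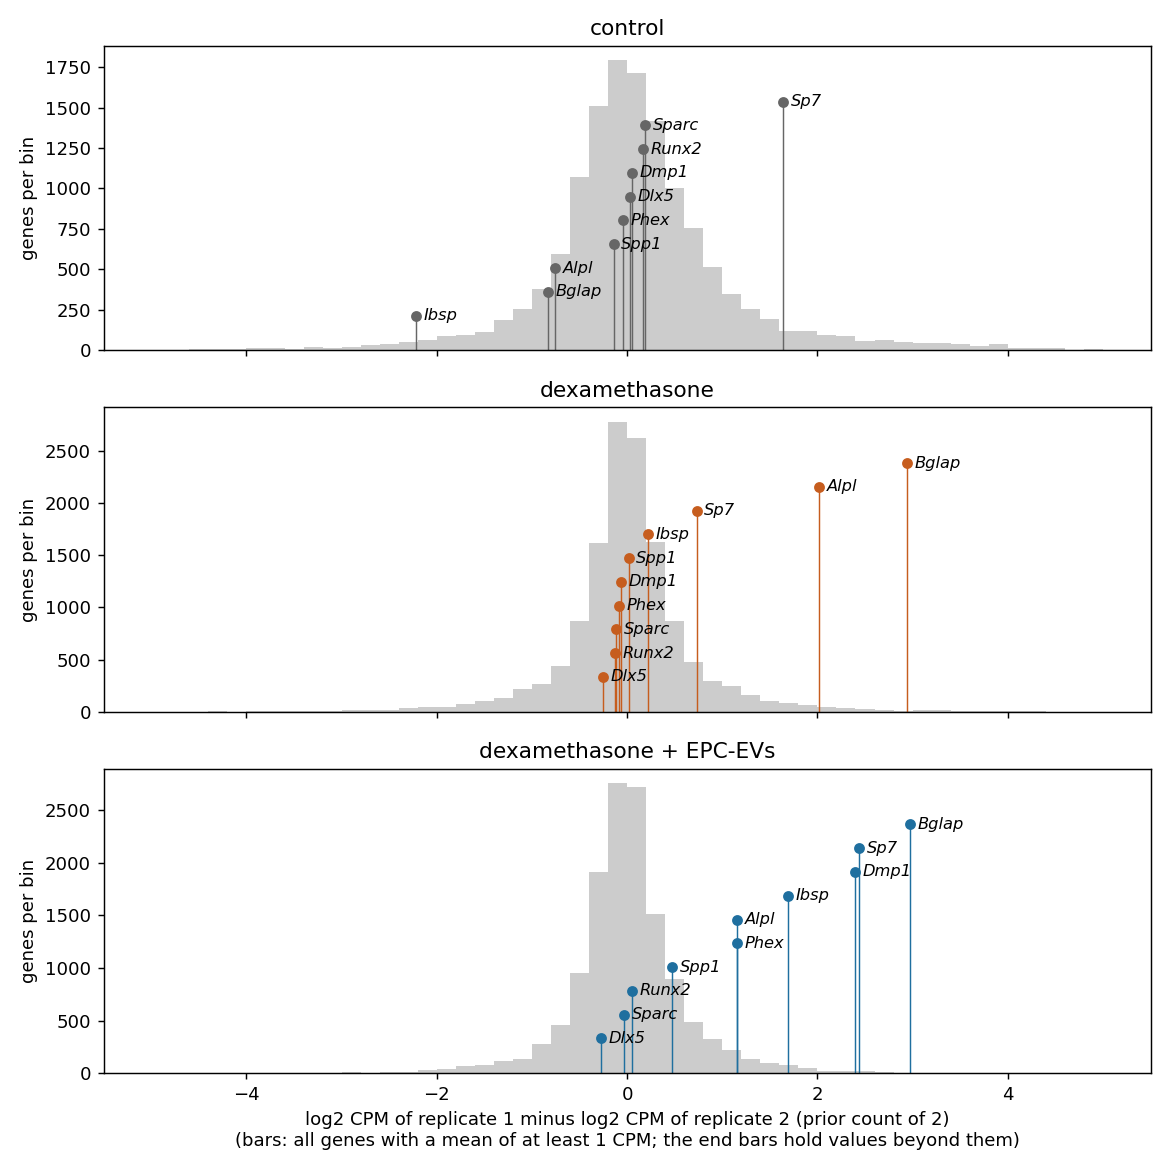
Difference between the 2 libraries of each group, as log2 CPM (prior count of 2) of replicate 1 minus replicate 2, for all 13465 genes averaging 1 CPM or more (grey bars, number of genes) and for the 10 genes (stems, whose heights only separate the names). In dexamethasone + EPC-EVs, *Bglap*, *Sp7*, *Dmp1*, *Ibsp*, *Phex* and *Alpl* lay to the right of most genes, and *Sparc*, *Runx2* and *Dlx5* lay near 0.

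Other regulators of osteoblasts, 11 of 12 of them in the table, moved in both directions. Dexamethasone against control called 0 of 9 tested by edgeR's quasi-likelihood test, with 1 at an unadjusted p under 0.05, beside 0.0544% and 10.9% of all genes. With EPC-EVs against dexamethasone, 2 of 10 rose, 1 fell and 7 did not pass, beside 20.9% higher and 18.9% lower over all genes. *Atf4*, the stress-responsive factor needed for amino acid import in osteoblasts, rose from 62.0 and 43.0 CPM to 192 and 258 CPM (log2 fold change 2.05 ± 0.20 SE, adjusted p = 1.89e-05, edgeR). *Zfp521*, a zinc finger protein that antagonizes RUNX2, rose from 41.5 and 47.0 CPM to 83.6 and 79.7 CPM (0.84 ± 0.17, adjusted p = 0.00258, edgeR). The gene that fell was *Cbfb*, the partner subunit that RUNX proteins need to bind DNA, from 126 and 144 CPM to 62.3 and 56.5 CPM (-1.23 ± 0.16, adjusted p = 0.000102, edgeR).

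Against control, *Atf4* (2.00 ± 0.23) and *Cbfb* (-1.47 ± 0.22) were called in the same directions with these EPC-EV libraries, and *Zfp521* was not (0.46, adjusted p = 0.120, edgeR). *Cbfb* thus fell while *Runx2* did not pass the test, and *Runx1* and *Runx3* were not called either. *Twist2*, a repressor of osteoblast differentiation, did not pass against dexamethasone and was called higher against control (2.98 ± 1.0, adjusted p = 0.0463, edgeR), from 5 and 1 counts to 60 and 50. Its call was lost without control replicate 2 (adjusted p = 0.0667), without either EPC-EV library (adjusted p = 0.377 and 0.270), by DESeq2 (adjusted p = 0.0533) and with the GC and length trend removed (adjusted p = 0.0904).

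Other mineralization genes, 15 of 17 in the table, also moved both ways. Dexamethasone against control called 0 of 9, with 2 at an unadjusted p under 0.05, beside 0.0544% and 10.9% of all genes. EPC-EVs against dexamethasone called 3 of 10 higher and 2 lower, beside 20.9% and 18.9%. The 3 that rose were *Ank*, *Slc20a1* and *Smpd3*. *Slc20a2* of the same list did not pass (log2 fold change 0.23, adjusted p = 0.609, edgeR), and *Phospho1* had too few counts to be tested. *Ank*, the transporter that exports pyrophosphate, an inhibitor of mineral, rose from 205 and 168 CPM to 444 and 442 CPM (log2 fold change 1.20 ± 0.13 SE, adjusted p = 4.67e-05, edgeR). *Slc20a1*, a phosphate importer, rose from 34.8 and 25.03 CPM to 76.4 and 53.1 CPM (1.07 ± 0.24, adjusted p = 0.00433, edgeR), and was no longer called without dexamethasone replicate 2 (adjusted p = 0.0759).

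*Smpd3*, the neutral sphingomyelinase needed for normal bone mineral, rose from 3.06 and 2.21 CPM to 10.8 and 20.6 CPM (log2 fold change 2.52 ± 0.47 SE, adjusted p = 0.00138, edgeR). The 2 genes that fell were *Mgp*, matrix Gla protein, an inhibitor of calcification, and *Pdpn*, podoplanin, an early osteocyte marker. *Mgp* went from 452 and 451 CPM to 278 and 145 CPM (-1.14 ± 0.27, adjusted p = 0.0111, edgeR), a call lost without dexamethasone replicate 1 (adjusted p = 0.0525) or replicate 2 (adjusted p = 0.0523). *Pdpn* went from 805 and 832 CPM to 365 and 452 CPM (-1.049 ± 0.13, adjusted p = 9.2e-05, edgeR).

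The same 5 mineralization genes were called in the same directions against control, at log2 fold changes of 1.68 for *Ank*, 1.24 for *Slc20a1*, 3.85 for *Smpd3*, -1.20 for *Mgp* and -1.13 for *Pdpn*. The value of *Smpd3* ran from 3.09 without control replicate 2 to 6.21 without control replicate 1, *Slc20a1* was not called without EPC-EV replicate 1 (adjusted p = 0.0866, edgeR), and *Mgp* was not called without control replicate 2 (adjusted p = 0.0628). Together, the 2 lists gave 8 calls of 20 genes tested against dexamethasone and 8 of 19 against control, with medians of 0.19 and 0.46, beside shares of 39.8% and 36.4% and medians of 0.01 and 0.02 over all genes. *Sost*, which encodes sclerostin of mature osteocytes, had 0 counts in 5 libraries and 4 counts in EPC-EV replicate 2.

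**Figure D4:**
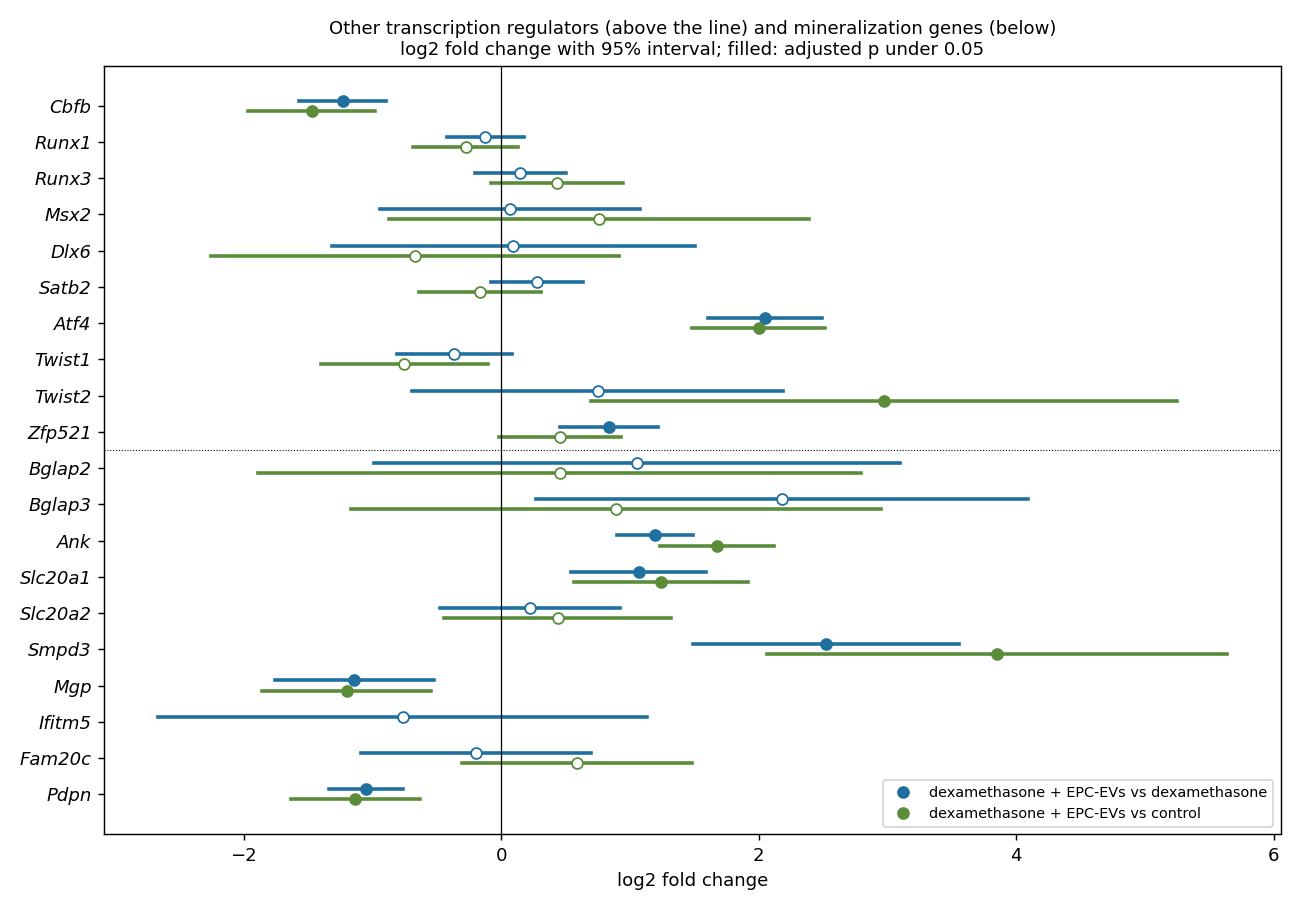
Log2 fold change with 95% interval for the other transcription regulators (above the dotted line) and other mineralization genes (below it) in both comparisons with EPC-EVs, filled where the adjusted p was under 0.05 (edgeR). *Atf4*, *Ank*, *Slc20a1* and *Smpd3* lay above 0 and *Cbfb*, *Mgp* and *Pdpn* below 0 in both.

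Among 8 glucocorticoid receptor targets, dexamethasone against control called 0 of 7 tested, with *Dusp1* (-0.44) and *Errfi1* (-0.53), both below 0, at an unadjusted p under 0.05 (edgeR's quasi-likelihood test), beside 0.0544% and 10.9% of all genes. *Fkbp5* (0.27), *Per1* (0.0007), *Tsc22d3* (-0.09), *Klf9* (-0.097) and *Sgk1* (-0.25) passed neither threshold. EPC-EVs against dexamethasone called 4 of 7 higher, beside 20.9% of all genes. These were *Fkbp5* (log2 fold change 0.73), *Tsc22d3* (2.40), *Sgk1* (0.75) and *Dusp1* (2.21). Against control 3 of 7 were called higher and 1 lower, beside 19.1% and 17.2% of all genes, with *Errfi1* the lower one (-0.85, adjusted p = 0.0141, edgeR) and *Sgk1* not called (adjusted p = 0.161).

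The type I collagen genes rose beside *Sparc*, whose product binds collagen. *Col1a1* rose from 2428 and 2905 CPM to 8770 and 6914 CPM (log2 fold change 1.51 ± 0.14 SE, adjusted p = 1.16e-05, edgeR), and *Col1a2* from 2740 and 2750 CPM to 11662 and 9351 CPM (1.89 ± 0.12, adjusted p = 1.42e-06, edgeR). With the GC and length trend removed, *Col1a1* stood at 0.74 (adjusted p = 0.00175) and *Sparc* at 0.93 (adjusted p = 6.46e-05), both still called.

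For the 6 genes that averaged 10 CPM or more, the genes of most similar pattern were found among 9223 genes at that level, by the distance between centred log2 CPM over the 6 libraries, which fall into 3 groups of 2. The nearest to *Runx2* was *Ssfa2* (distance 0.0681) and then *Agps* (0.122), to *Dlx5* *Smcr8* (0.104) and *Zfp318* (0.122), and to *Sparc* *Dtymk* (0.120) and *Anapc2* (0.156). *Spp1* lay nearest to *Nudcd2* (0.147) and *Tcf7l2* (0.155). For *Dmp1* the distances were larger, 0.739 to *Sned1* and 0.763 to *Fxyd5*, on a measure that grows with the range of a gene's own values.

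Leaving the mitochondrially encoded genes out of the totals left the values for EPC-EVs against dexamethasone at -1.06 for *Spp1*, 1.24 for *Sparc* and -1.92 for *Phex*, all called by edgeR. Under the threshold of the study's methods, which asks for a log2 fold change beyond 1.5 either way at p under 0.05 unadjusted, *Phex* alone of the 10 genes passed against dexamethasone, beside 14.2% of all genes, and *Phex*, *Sparc*, *Dmp1* and *Sp7* passed against control, beside 20.7%. For dexamethasone against control 0 of the 9 tested passed, beside 1.41%.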

How the data were processed

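The authors removed reads with adapters, unresolved bases or low quality, aligned the rest to GRCm38 with HISAT2 and counted them per gene with HTSeq 0.6.1. They deposited these counts without normalization, beside FPKM per gene. The study describes summing FPKM of transcripts, whereas the deposited FPKM were proportional to count over library total (within 0.1%) in 9842 of the 9842 genes with 20 counts or more in every library. The study ran HISAT2 with a strand setting (RF), but whether the counting used strand is not given in the sources used here. The deposited transcript FPKM were not used, since that table covers chromosome 1, which holds none of the 10 genes.

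Here the deposited counts were fitted over the whole table with edgeR 4.0.16 in R 4.3.3, one pair of groups (4 libraries) at a time, after TMM normalization and filtering by filterByExpr. The quasi-likelihood test had robust dispersions, with Benjamini-Hochberg adjustment over all genes tested and a call at an adjusted p under 0.05. The standard error was the log2 fold change divided by the square root of F. The fit was tested on simulated data. The 10 genes and the other lists, and the rule for the genes named (list members called and the 2 nearest patterns), were chosen with earlier results of these data known. The nearest patterns of *Phex* are not reported here. The samples share a replicate number only. The study calls the 2 samples per group biological replicates, and the labels do not say that they are separate cultures, so p-values measure the spread between these samples. Alternatives were other normalizations and filters, DESeq2 1.42.0, limma 3.58.1 on log2(FPKM + 1), all 6 libraries in 1 fit, a replicate block, the study's threshold, a GC and length trend (loess span 0.4, values for 99.8% of genes) and each library left out. DESeq2 1.26.0 is named in the submitters' processing notes. Coordinates are those of GENCODE vM21 on GRCm38, where 21646 of the 21686 identifiers matched.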

Additional observations from a re-analysis of the deposited data

How the results depend on the processing

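Over the alternatives run, values of the 10 genes stayed on the same side of the threshold and in the same direction in 365 cases, became called in 18, lost the call in 6 and turned direction in 15. None of the 15 was called. With the GC and length trend removed, *Spp1* for dexamethasone against control became 0.14, *Dlx5* -0.16, -0.31 and -0.49 in the 3 comparisons, and *Ibsp* 0.24 and *Bglap* -0.016 for EPC-EVs against control. By limma, *Spp1* for dexamethasone against control became 0.051. With 1 library left out, *Spp1* ran from -0.088 to 0.059 and *Dlx5* from -0.036 to 0.21 for dexamethasone against control, *Sp7* from -0.49 to 2.02 and *Bglap* from -0.38 to 8.27 for EPC-EVs against dexamethasone (the latter against a lone library at 0, so no bound), and *Runx2* from -0.15 to 0.039, *Ibsp* from -1.52 to 1.89 (0.58 without EPC-EV replicate 2) and *Bglap* from -1.77 to 1.59 for EPC-EVs against control. The cause was not tested.

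For dexamethasone against control, 7 genes of the table were called, and 1 without mitochondrially encoded genes, 248 with no filter, 11 with a mean of at least 1 CPM, 131 by DESeq2, 0 by limma (1409 at an unadjusted p under 0.05 by edgeR), 182 by the study's threshold, 16 with the GC and length trend removed, and 9 to 2200 with 1 library left out, the most when control replicate 1 was dropped. Among the 10 genes it was 0, or 0 to 2 with 1 library left out, and of the other osteoblast genes 0, or 0 to 3. For EPC-EVs against dexamethasone, the study's threshold, whose p is unadjusted, called 1 of the 10 genes in place of 3, 3 other osteoblast genes in place of 8 and 1922 genes of the table in place of 5397, and with 1 library left out these counts were 3 to 6, 6 to 10 and 3250 to 4813, with the 6 without EPC-EV replicate 2. For EPC-EVs against control, that threshold called 4 other osteoblast genes in place of 8 and 2793 genes in place of 4916, and with 1 library left out the counts were 3 to 5, 6 to 11 and 3375 to 6231. Without EPC-EV replicate 2 the 5 calls included *Dmp1* and *Sp7*.

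The replicate numbers did not pair the samples, with correlations of same-numbered deviations of 0.05, 0.01 and 0.02. With a replicate block, 43 genes were called for dexamethasone against control, and 5 of the 10 genes were called for EPC-EVs against control, where *Dmp1* (-2.05, adjusted p = 0.0118) and *Sp7* (1.95, adjusted p = 0.0345, edgeR) were added. Counts under 20 in most libraries limit *Alpl*, *Ibsp* and *Bglap*, and 2 libraries per group limit every interval.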
